A study of Mus musculus with 6 samples.

Results

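The genes of the SAGA, ATAC and NuA4 complexes, the large assemblies that acetylate histones at promoters, were followed in mouse embryonic stem (ES) cells by sequencing of polyadenylated RNA. The 39 genes were chosen by name, as subunits of these complexes, and all 39 symbols matched 1 identifier each among the 55401 rows of the count table. Of these genes 18 belong to SAGA, 11 to ATAC and 15 to NuA4, with 5 genes counted in more than 1 complex. The libraries labelled KO (n = 3) came from cells given doxycycline, and those labelled as expressing 3XHA-Taf13 (n = 3), a tagged form of the TFIID subunit TAF13, came from cells given no treatment. Both groups were cultured for 7 days, with a separate Petri dish for each of 3 replicates. No library had one without the other, so the effects of doxycycline and of the loss of TAF13 cannot be told apart. The sources used here do not say whether all dishes came from 1 clone, or what drives the tagged gene. The comparison addresses the part of TAF13 in transcription by RNA polymerase II.

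SAGA and ATAC carry the same lysine acetyltransferases, GCN5 (Kat2a) or its paralogue PCAF (Kat2b), which act mainly on histone H3. SAGA adds a deubiquitinase that removes ubiquitin from nucleosomes, and a core that resembles TFIID and, in yeast, delivers TBP to promoters. ATAC adds a further acetyltransferase, encoded by Kat14, and readers of histone marks. NuA4, also called the TIP60 complex, joins the acetyltransferase TIP60 (Kat5), which acts on histones H4 and H2A, to the EP400 ATPase, which deposits a histone variant. TRRAP is a giant scaffold, present in SAGA and in NuA4, that binds transcriptional activators. In ES cells these complexes are known as cofactors of the MYC and pluripotency networks.

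Taf13 itself did not check the labels. It stood at 13.24 ± 1.02 CPM in KO libraries and 10.05 ± 2.21 CPM in expressing libraries (SD, n = 3 each), with a log2 fold change of 0.40 (SE 0.147, adjusted p = 0.0578), and the counts do not tell the tagged from the chromosomal gene. CPM are counts scaled to the library size with TMM factors, and fold changes are log2, KO minus expressing, from edgeR's quasi-likelihood test with Benjamini-Hochberg adjustment over the 17778 genes tested. Library totals ran from 33953189 to 50328010 counts in KO and from 31219328 to 45957003 in expressing libraries. Expressing replicate 1 stood apart: its counts differed from those of the other expressing libraries with a chi-square per degree of freedom of 33.9 and 27.5, against 3.27 to 5.67 for the other pairs within a group, and its deviations correlated with gene GC content (r = 0.553, a description across genes that share these libraries). Values without it are given beside many of the results below. Of 8 ES cell markers 7 were lower in KO, with a summed level of 2517 to 2581 CPM against 3561 to 3708 CPM in expressing libraries, and of 8 primitive endoderm markers all 8 were higher, at 401.8 to 439.4 CPM against 77.1 to 88.4 CPM. Of 7 fibroblast markers, for feeder cells, 2 were higher and 1 lower, at 90.5 to 170.7 CPM against 97.3 to 125.6 CPM, and of 6 trophectoderm markers (5 tested) 2 were higher and 3 lower, at 192.0 to 202.4 CPM against 179.0 to 223.8 CPM. No marker on these lists was at 0 in every library. The part of these marker shifts in the results below was not tested, and in bulk RNA fewer cells of a type and less RNA per cell cannot be told apart.

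Small decreases prevailed among the acetyltransferase complex genes. Of the 39, 16 fell and 3 rose in KO libraries (edgeR, adjusted p under 0.05), and 20 were not called. Across all tested genes 20.8% were called lower and 19.2% higher. The members' median log2 fold change was -0.18, against -0.01 for all tested genes, and 30 of 39 values were below 0. No member moved far: the called members had a median absolute log2 fold change of 0.33, against 0.56 for all called genes, and the 95% interval of each of the 39 lay between -1 and 1, that is within 2-fold. Every member passed the filter on low counts, with 337 to 13090 counts per library. Genes with few counts need a larger change to be called. Members were not compared with genes of similar level, so the part of level in these contrasts with all genes was not tested. The KO libraries all lay below the expressing libraries for 22 members and all above for 3, where 27.1% and 26.4% of tested genes did so. NuA4 had 8 genes lower and 0 higher of 15 in edgeR, ATAC 4 and 0 of 11, and SAGA 6 and 3 of 18, with medians of -0.19, -0.18 and -0.09. At an unadjusted p under 0.05 the higher genes numbered 0 in NuA4 and 0 in ATAC, and by DESeq2 0 in both. The same held for the SAGA core described further on.

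These counts moved with a library and with the scaling. Without expressing replicate 1, 20 members were lower and 4 higher, where 24.7% and 26.2% of tested genes were. The members' median was then -0.09, against 0.01 for all tested genes, a smaller distance than with all libraries. NuA4, ATAC and SAGA had medians of -0.15, -0.10 and -0.02 without that library, and 1 ATAC gene, Sgf29, was higher. With libraries scaled by their totals alone 8 were lower and 3 higher, where 14.5% and 25.1% of tested genes were, and the median of all tested genes was 0.08 in place of -0.01. Under that scaling the median was -0.09 for the members, -0.11 for NuA4, -0.08 for ATAC and -0.00 for SAGA. None of the 19 called members changed sign under that scaling, while Usp22, Supt7l, Supt20, Epc1 and Vps72, all uncalled, did.

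**Figure D1:**
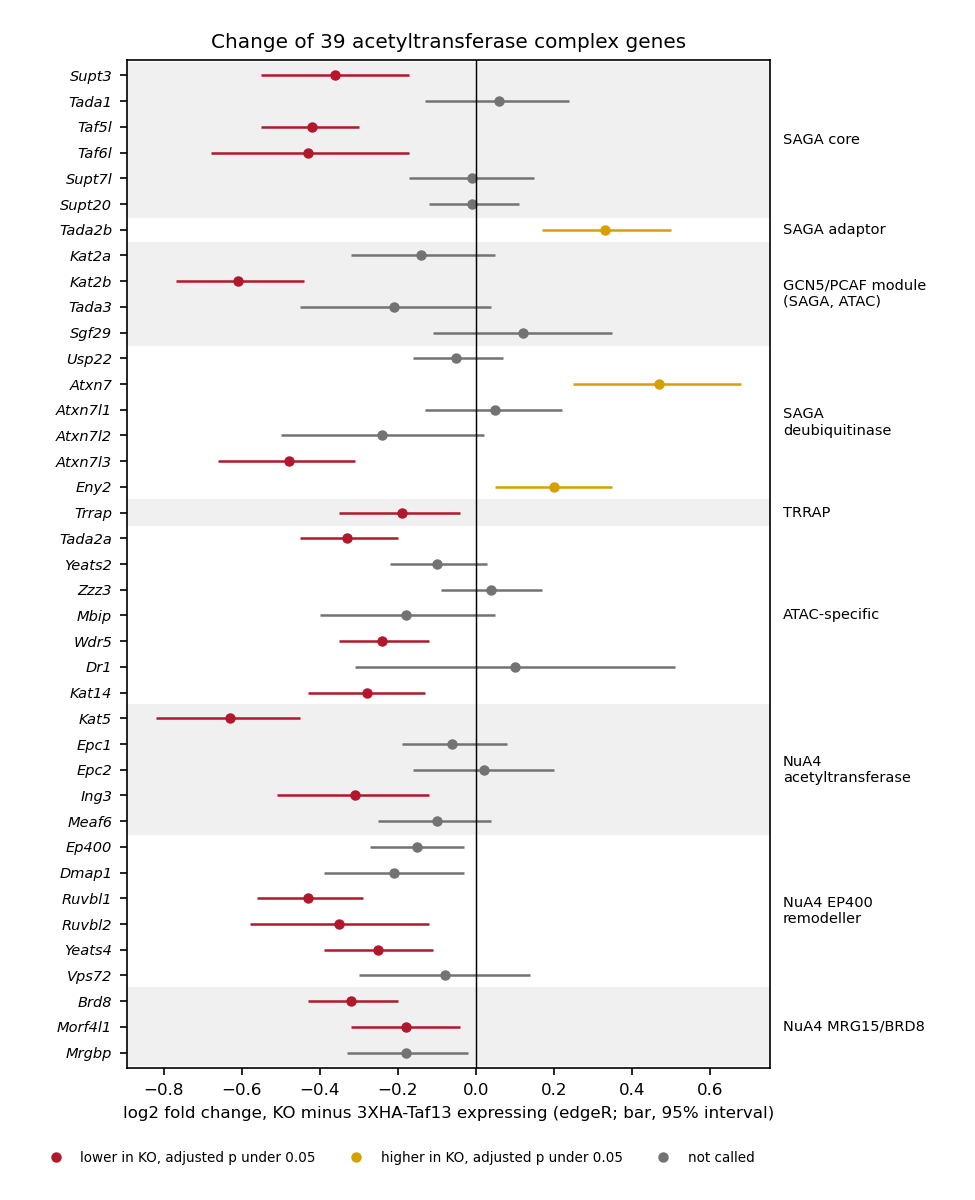
Log2 fold change of each of the 39 genes, KO minus 3XHA-Taf13 expressing, with its 95% interval from edgeR, grouped by module; colour marks the call. Kat5 (-0.63) and Kat2b (-0.61) lie farthest to the left, and only Atxn7, Tada2b and Eny2 are called to the right of 0.

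**Figure D2:**
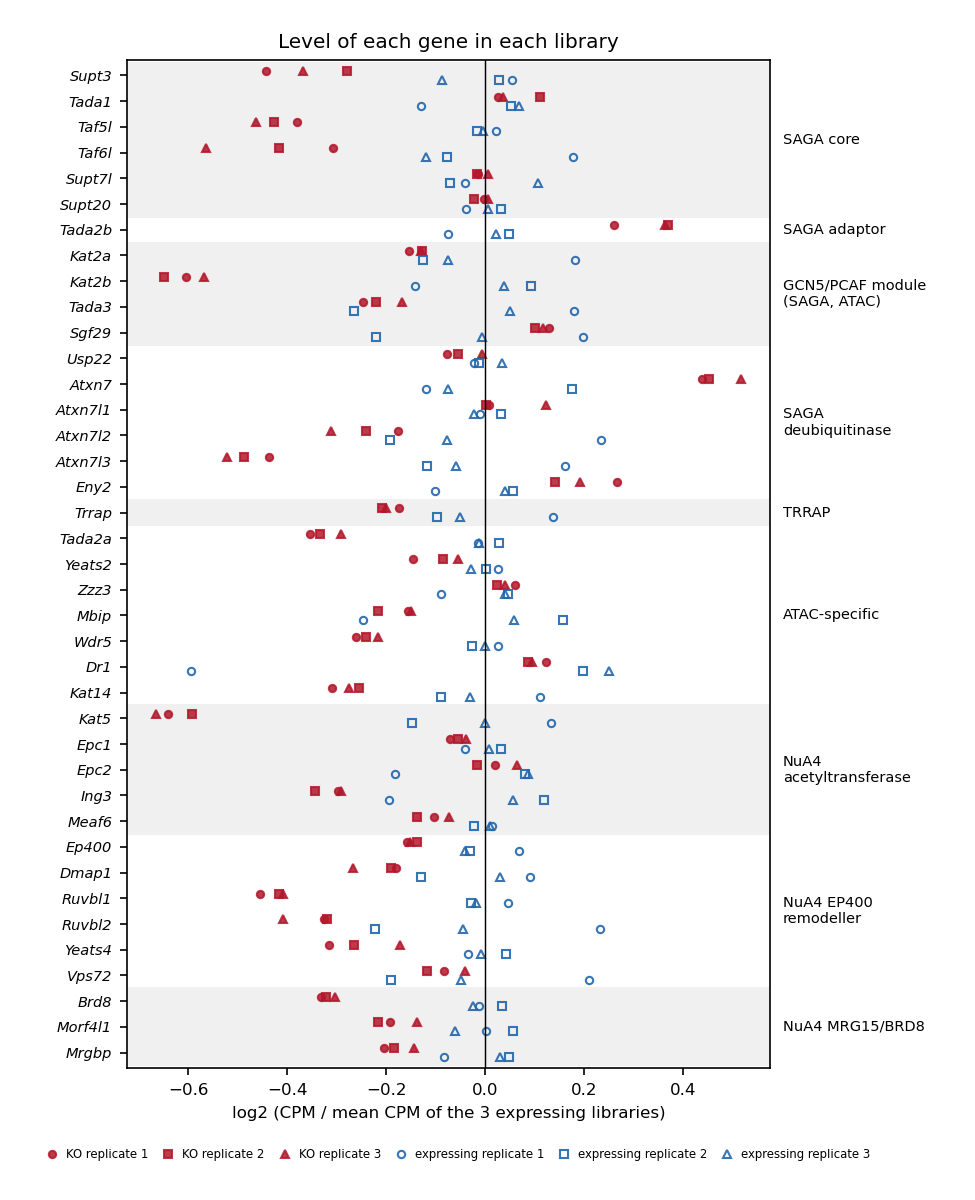
Level of each gene in each library as log2 of its CPM over the mean of the 3 expressing libraries; filled symbols are KO libraries, open symbols expressing libraries, and the shape gives the replicate. KO libraries lie close together, while expressing replicate 1 stands away from its group for several genes, most clearly Dr1.

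Among the 4 acetyltransferase enzymes, the genes for PCAF, TIP60 and the ATAC enzyme KAT14 fell and Kat2a was not called. Kat5 (ENSMUSG00000024926; chromosome 19, 5603014 to 5610237, mm10) had 29.6, 30.7 and 29.1 CPM in KO libraries, against 50.6, 41.7 and 46.2 CPM in expressing libraries. No KO library reached the lowest expressing library, and the log2 fold change was -0.63 (SE 0.0821, adjusted p = 0.000333, edgeR), or 64.6% of the expressing level. Its exons overlap those of Rnaseh2c on the opposite strand over 426 bases. The libraries were stranded, but the strand setting of the counting is not given in the sources used here, so reads of such neighbours may be mixed. Rnaseh2c was not called (0.13, SE 0.134).

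Kat2b (ENSMUSG00000000708; chromosome 17, 53566861 to 53672720) had 46.9, 45.5 and 48.1 CPM in KO libraries, against 64.7, 76.1 and 73.2 CPM in expressing libraries. The groups were well apart, with KO at 65.6% of the expressing level (log2 fold change -0.61, SE 0.0742, adjusted p = 0.000231, edgeR). A processed copy, Kat2b-ps, held 10 to 15 counts per KO library and 7 to 18 per expressing library. Kat2a (chromosome 11, 100704746 to 100712465) had 102.8, 104.7 and 104.6 CPM in KO libraries, against 129.7, 104.8 and 108.6 CPM in expressing libraries. Its highest KO value lay just below the lowest expressing value, and only expressing replicate 1 was far higher (log2 fold change -0.14, SE 0.0814, adjusted p = 0.213, edgeR; -0.01 without that library).

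Kat14 (chromosome 2, 144368983 to 144407676) had 61.5, 63.9 and 63.0 CPM in KO libraries, against 82.3, 71.7 and 74.7 CPM in expressing libraries. The decrease was smaller than that of Kat5 (-0.28, SE 0.0678, adjusted p = 0.00974, edgeR), did not overlap between groups, and was -0.19 without expressing replicate 1. It was lost with library totals (adjusted p = 0.0801). Kat14 shares 693 exon bases with Pet117 on the same strand, where reads cannot be told apart by strand.

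The partners of GCN5 and PCAF inside the acetyltransferase module went separate ways. ADA2 adaptors come in 2 forms, TADA2A in ATAC and TADA2B in SAGA, each of which joins the enzyme to its complex. Tada2a (chromosome 11, 84078920 to 84129600) had 77.1, 78.2 and 80.5 CPM in KO libraries, against 97.5, 100.4 and 97.6 CPM in expressing libraries. Its KO libraries were all lower (-0.33, SE 0.0552, adjusted p = 0.00148, edgeR). Tada2b (chromosome 5, 36473670 to 36484285) had 28.2, 30.4 and 30.3 CPM in KO libraries, against 22.4, 24.4 and 23.9 CPM in expressing libraries. Here the KO libraries were all higher (0.33, SE 0.073, adjusted p = 0.00592, edgeR). The exons of Tada2b overlap those of Grpel1 on the opposite strand over 411 bases, and Grpel1 fell (-0.40, SE 0.0578).

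Tada3, the adaptor common to both complexes, was at 22.5 to 23.8 CPM in KO and 22.2 to 30.2 CPM in expressing libraries (-0.21, SE 0.109), and Sgf29, which reads methylated histone H3, at 25.3 to 25.8 CPM and 20.3 to 27.0 CPM (0.12, SE 0.102). Both were uncalled with overlapping groups. Without expressing replicate 1, Sgf29 passed at 0.26 (adjusted p = 0.00243, edgeR; 0.17 with the GC trend removed, adjusted p = 0.0317) and Tada3 stood at -0.08 (adjusted p = 0.397), while without expressing replicate 2 Tada3 passed (adjusted p = 0.013).

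The promoters of the ADA2 pair are shown because these genes moved in opposite directions. Each window runs from 250 bases before to 50 after a RefSeq transcription start (GRCm38.p6), 5′ to 3′ on the strand of the gene. The Tada2a window lies at chr11:84129519-84129818 on the minus strand and the Tada2b window at chr5:36484236-36484535 on the minus strand. Capitals mark TATAAA, the letters of a TATA box, CCAAT from the box of that name, GGGCGG as found in GC boxes, CACGTG of the E-box and CCGGAAG as in ETS sites, each searched on both strands with overlaps allowed.
Tada2a: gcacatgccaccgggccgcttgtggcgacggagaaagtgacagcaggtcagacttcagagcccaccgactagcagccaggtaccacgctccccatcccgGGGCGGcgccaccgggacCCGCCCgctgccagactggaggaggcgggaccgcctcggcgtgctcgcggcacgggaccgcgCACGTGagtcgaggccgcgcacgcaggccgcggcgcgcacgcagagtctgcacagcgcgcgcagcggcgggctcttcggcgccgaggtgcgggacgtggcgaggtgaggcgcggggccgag
Tada2b: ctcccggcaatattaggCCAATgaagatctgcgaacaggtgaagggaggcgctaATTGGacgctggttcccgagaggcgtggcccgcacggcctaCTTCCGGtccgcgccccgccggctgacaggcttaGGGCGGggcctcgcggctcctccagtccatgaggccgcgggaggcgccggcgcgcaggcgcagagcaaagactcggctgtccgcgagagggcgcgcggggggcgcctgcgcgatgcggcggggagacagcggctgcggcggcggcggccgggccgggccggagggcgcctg
The Tada2a window held CACGTG, the letters of an E-box, once (-71 to -66 from the start) and GGGCGG 2 times. Tada2b held GGGCGG once, CCGGAAG once and CCAAT 2 times. GC content was 75.0% and 74.3%. Neither window held TATAAA.

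SAGA's deubiquitinase module showed changes in both directions around an enzyme that was not called. Usp22, the ubiquitin protease, had 222.6, 226.2 and 233.8 CPM in KO libraries, against 231.2, 233.0 and 240.4 CPM in expressing libraries. These ranges overlapped (log2 fold change -0.05, SE 0.0525, adjusted p = 0.519, edgeR), and the 95% interval of -0.16 to 0.07 leaves room for small changes only. Atxn7l3, which together with ENY2 activates USP22, fell. It (chromosome 11, 102289300 to 102296631) had 93.7, 90.5 and 88.4 CPM in KO libraries, against 141.8, 116.9 and 121.8 CPM in expressing libraries. All KO values were lower (-0.48, SE 0.0781, adjusted p = 0.00116, edgeR; -0.37 without expressing replicate 1).

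Atxn7, which anchors the deubiquitinase to SAGA and whose human counterpart carries the repeat expansion of a spinocerebellar ataxia, rose. Atxn7 (chromosome 14, 13961440 to 14107302) had 15.9, 16.0 and 16.8 CPM in KO libraries, against 10.8, 13.2 and 11.1 CPM in expressing libraries. The groups did not overlap, and this was the largest increase among the members (0.47, SE 0.0973, adjusted p = 0.0045, edgeR). Eny2, a small subunit also found in the mRNA export complex TREX-2, had 116.5, 106.8 and 110.6 CPM in KO libraries, against 90.3, 100.8 and 99.6 CPM in expressing libraries. Its KO libraries were higher by a narrow margin (0.20, SE 0.066, adjusted p = 0.0373, edgeR). The Eny2 call was lost without expressing replicate 3 or any 1 of the KO libraries, with the replicate block and with the GC trend removed, where the highest adjusted p was 0.17. Eny2 overlaps Nudcd1 on the opposite strand (-0.19, SE 0.0876).

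The ATXN7 paralogues Atxn7l1 (0.05, SE 0.0791) and Atxn7l2 (-0.24, SE 0.116) were not called. Atxn7l2 lay at 11.6 to 12.8 CPM in KO and 12.6 to 16.95 CPM in expressing libraries, with expressing replicate 1 the highest, and without that library its value was -0.08. Without expressing replicate 2 it passed (adjusted p = 0.0465).

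Windows of the same kind are shown for the deubiquitinase partners that moved in opposite directions, Atxn7 at chr14:14012241-14012540 on the plus strand, a start inside the annotated gene, and Atxn7l3 at chr11:102296580-102296879 on the minus strand.
Atxn7: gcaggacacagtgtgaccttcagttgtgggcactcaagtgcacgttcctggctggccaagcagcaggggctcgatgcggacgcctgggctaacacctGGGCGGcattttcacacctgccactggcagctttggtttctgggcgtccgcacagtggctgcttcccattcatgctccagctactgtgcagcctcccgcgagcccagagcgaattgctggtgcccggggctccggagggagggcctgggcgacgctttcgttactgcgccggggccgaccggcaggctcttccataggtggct
Atxn7l3: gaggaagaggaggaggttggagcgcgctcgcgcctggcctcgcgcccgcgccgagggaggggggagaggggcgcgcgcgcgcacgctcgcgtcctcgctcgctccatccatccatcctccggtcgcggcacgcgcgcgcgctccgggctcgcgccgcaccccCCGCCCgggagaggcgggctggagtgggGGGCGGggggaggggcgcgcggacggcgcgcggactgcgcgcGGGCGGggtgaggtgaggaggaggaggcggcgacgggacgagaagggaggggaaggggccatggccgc
The Atxn7 window held GGGCGG once and the Atxn7l3 window 3 times, with a GC content of 64.7% and 80.0%, and neither held any of the other motifs.

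Trrap (chromosome 5, 144767732 to 144859778), shared by SAGA and NuA4, had 174.6, 170.6 and 171.6 CPM in KO libraries, against 216.7, 184.3 and 190.2 CPM in expressing libraries. The KO libraries were all lower, but the call was marginal (-0.19, SE 0.069, adjusted p = 0.0493, edgeR). It held under only 5 of 14 alternatives, and without expressing replicate 1 the value was -0.09 (adjusted p = 0.0366), while with library totals it was -0.11 and not called (adjusted p = 0.311).

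In the TFIID-like core of SAGA, 3 of 6 genes fell and 0 rose, where 20.8% and 19.2% of all tested genes did. With library totals 2 of the 6 were lower, where 14.5% of tested genes were. Taf5l, the SAGA counterpart of the WD40 subunit TAF5 (chromosome 8, 123996318 to 124021397), had 71.4, 69.1 and 67.4 CPM in KO libraries, against 94.3, 91.8 and 92.6 CPM in expressing libraries. The libraries of each group lay within a few CPM of each other and the groups far apart (-0.42, SE 0.0563, adjusted p = 0.00038, edgeR). Taf6l, the counterpart of the histone-fold subunit TAF6, had 10.0, 9.27 and 8.37 CPM in KO libraries, against 14.0, 11.7 and 11.4 CPM in expressing libraries. It was lower throughout at a low level (-0.43, SE 0.112, adjusted p = 0.0144, edgeR), and the call was lost without KO replicate 3 and with library totals (highest adjusted p 0.0713).

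Supt3, whose yeast counterpart contacts TBP, had 13.6, 15.2 and 14.3 CPM in KO libraries, against 19.1, 18.8 and 17.4 CPM in expressing libraries. All KO values were lower (-0.36, SE 0.0832, adjusted p = 0.00761, edgeR), though the call was lost with the GC trend removed, where the estimate was -0.44 with a wider error (SE 0.17, adjusted p = 0.0702). The scaffold genes Supt20 (-0.01, SE 0.0526) and Supt7l (-0.01, SE 0.0712) and the adaptor Tada1 (0.06, SE 0.0815) were not called, with 95% intervals of -0.12 to 0.11, -0.17 to 0.15 and -0.13 to 0.24. Supt20 was at 161.6 to 164.8 CPM in KO and 159.7 to 167.9 CPM in expressing libraries.

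Of the 7 ATAC genes listed for neither SAGA nor NuA4, 3 fell (Tada2a, Wdr5 and Kat14) and 0 rose. Across all tested genes 20.8% were lower and 19.2% higher. Without expressing replicate 1, 5 of the 7 ATAC genes were lower, where 24.7% of tested genes were. With library totals 1 of the 7 was lower, near the share of 14.5% of tested genes. Wdr5, a WD40 protein that ATAC shares with the MLL methyltransferases, had 245.8, 249.4 and 253.7 CPM in KO libraries, against 299.8, 289.3 and 294.8 CPM in expressing libraries. KO libraries were all lower (-0.24, SE 0.0507, adjusted p = 0.00492, edgeR), and the call was lost with library totals (-0.15, adjusted p = 0.0514). Yeats2, a reader of acetylated histone H3 (-0.10, SE 0.0555), Zzz3, a ZZ-domain reader of the H3 tail (0.04, SE 0.0589), and Mbip, which binds a MAP kinase kinase kinase (-0.18, SE 0.0994), were not called. Mbip was called without expressing replicate 1 (-0.26, adjusted p = 0.000229, edgeR) and with the GC trend removed (-0.23, adjusted p = 0.00156).

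Dr1, which encodes the histone-fold subunit of the TBP repressor NC2 and of ATAC, was at 121.6, 118.6 and 119.3 CPM in KO libraries, against 74.0, 128.1 and 132.9 CPM in expressing libraries. Expressing replicate 1 alone was low, and this gave the widest interval of any member (log2 fold change 0.10, SE 0.181, 95% interval -0.31 to 0.51). Without that library the value was -0.10 (SE 0.0396, adjusted p = 0.0447, edgeR), so 1 library decided the sign.

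In NuA4, the acetyltransferase part had 2 of 5 genes lower and 0 higher, where 20.8% and 19.2% of all tested genes were. With library totals 1 of the 5 was lower, where 14.5% of tested genes were. Beside Kat5, Ing3, a PHD-finger reader of methylated H3, had 38.2, 37.0 and 38.3 CPM in KO libraries, against 41.0, 50.9 and 48.7 CPM in expressing libraries. KO was lower in each library (-0.31, SE 0.0863, adjusted p = 0.0177, edgeR), most clearly without expressing replicate 1 (-0.37, adjusted p = 5.95e-07), but the call was lost without any 1 of the other 5 libraries and with library totals (highest adjusted p 0.0732). The enhancer-of-polycomb scaffolds Epc1 (-0.06, SE 0.0604) and Epc2 (0.02, SE 0.0795) and the small subunit Meaf6 (-0.10, SE 0.0629) were not called. Epc1 lay at 44.7 to 45.7 CPM in KO and 45.7 to 48.1 CPM in expressing libraries.

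The part of NuA4 built on the EP400 ATPase had 3 of 6 genes lower and 0 higher, where 20.8% and 19.2% of all tested genes were. With library totals 1 of the 6 was lower, where 14.5% of tested genes were. Ep400 (chromosome 5, 110664373 to 110770717) had 230.2, 233.3 and 231.2 CPM in KO libraries, against 269.2, 251.4 and 249.5 CPM in expressing libraries. Although the groups did not overlap, it missed the threshold (-0.15, SE 0.0545, adjusted p = 0.0546, edgeR), and it passed without expressing replicate 1 (-0.09, adjusted p = 0.043) and with the GC trend removed (-0.11, adjusted p = 0.0147). RUVBL1 and RUVBL2 are AAA+ ATPases that form a ring together, in NuA4 as in other remodellers. Ruvbl1 (chromosome 6, 88465409 to 88497572) had 50.4, 51.8 and 52.0 CPM in KO libraries, against 71.3, 67.7 and 68.2 CPM in expressing libraries. Every KO library was lower, and the 3 lay close together (-0.43, SE 0.0587, adjusted p = 0.000453, edgeR).

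Ruvbl2 (chromosome 7, 45421760 to 45438096) had 173.3, 173.9 and 163.6 CPM in KO libraries, against 254.9, 186.1 and 210.4 CPM in expressing libraries. The expressing values were widely spread, with expressing replicate 1 the highest (-0.35, SE 0.102, adjusted p = 0.0217, edgeR; -0.19 without that library, adjusted p = 0.000804). The Ruvbl2 call was lost without expressing replicate 3, without any 1 of the KO libraries and with library totals (highest adjusted p 0.0888). Yeats4, a YEATS-domain reader also known as GAS41, had 67.3, 69.6 and 74.3 CPM in KO libraries, against 81.7, 86.2 and 83.2 CPM in expressing libraries. It was lower in all of them (-0.25, SE 0.0621, adjusted p = 0.0109, edgeR). Its call was lost without KO replicate 1 or 2 and with library totals (highest adjusted p 0.0701). Dmap1, which is shared with the SRCAP remodeller (-0.21, SE 0.0801), and Vps72, a chaperone of the variant histone (-0.08, SE 0.0988), were not called. Dmap1 passed without expressing replicate 2 and with the GC trend removed, with a lowest adjusted p of 0.0243.

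The remaining subunits of NuA4, a bromodomain protein and the MRG15 pair, all had values below 0. Brd8, the bromodomain subunit, had 185.3, 186.7 and 188.9 CPM in KO libraries, against 231.3, 238.8 and 229.3 CPM in expressing libraries. All KO values were lower (-0.32, SE 0.0514, adjusted p = 0.00112, edgeR), and the call held under all 14 alternatives. Morf4l1, which encodes the chromodomain protein MRG15, had 49.1, 48.3 and 51.0 CPM in KO libraries, against 56.1, 58.3 and 53.7 CPM in expressing libraries. All its KO values were lower by a small step (-0.18, SE 0.0631, adjusted p = 0.0456, edgeR), and the call held under only 4 of 14 alternatives. Morf4l1 overlaps the predicted gene Gm26882 on the opposite strand over 1499 exon bases. Mrgbp, the partner of MRG15 (-0.18, SE 0.0692, adjusted p = 0.0678, edgeR), was not called, and passed without expressing replicate 1 (adjusted p = 0.00802).

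RefSeq windows matched 33 of the 39 genes by symbol. The letters TATAAA occurred in the window of 1 of these 33, Ruvbl1, and in 9.26% of the 12198 tested genes that have a window. It is shown for this reason (chr6:88465159-88465458, plus strand), with the same motifs in capitals.
Ruvbl1: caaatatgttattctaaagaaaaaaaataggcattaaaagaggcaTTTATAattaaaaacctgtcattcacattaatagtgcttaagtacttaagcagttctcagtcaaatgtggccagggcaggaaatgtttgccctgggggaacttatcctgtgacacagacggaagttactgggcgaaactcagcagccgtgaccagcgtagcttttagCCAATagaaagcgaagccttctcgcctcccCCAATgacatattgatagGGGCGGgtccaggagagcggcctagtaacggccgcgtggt
The TATAAA match lay on the opposite strand at -205 to -200 from the start, and CCAAT stood at -38 to -34 and at -8 to -4. CCAAT occurred in 13 of the 33 genes (42.7% of tested genes), GGGCGG in 25 (66.4%), CACGTG in 5 (11.4%) and CCGGAAG in 8 (18%). These matches describe letters in a window and were not tested.

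Per kilobase of exon, the members spanned a wide range of levels in both groups. Wdr5 was highest, at 69.4 ± 1.09 CPM per kilobase in KO and 81.9 ± 1.46 in expressing libraries (SD, n = 3 each), followed in both groups by Ruvbl2 (58.7 ± 2.0 and 74.8 ± 12.0), Yeats4 (49.8 ± 2.5 and 59.2 ± 1.63) and Usp22 (46.6 ± 1.16 and 48.1 ± 0.992). The SDs of Wdr5 and Ruvbl2 in expressing libraries overlap, so their order there lies within the spread, as does that of Yeats4 and Usp22 in KO libraries. Atxn7l1 (1.5 ± 0.0723 and 1.45 ± 0.0291), Atxn7 (2.03 ± 0.0605 and 1.47 ± 0.166) and Taf6l (1.84 ± 0.163 and 2.47 ± 0.284) were lowest. Of the 2 PCAF and GCN5 genes, Kat2b was at 9.62 ± 0.268 CPM per kilobase in KO and 14.7 ± 1.22 in expressing libraries, and Kat2a at 29.9 ± 0.312 and 32.9 ± 3.85. The lengths are unions of annotated exons, which overstate the length of genes with many rare exons.

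**Figure D3:**
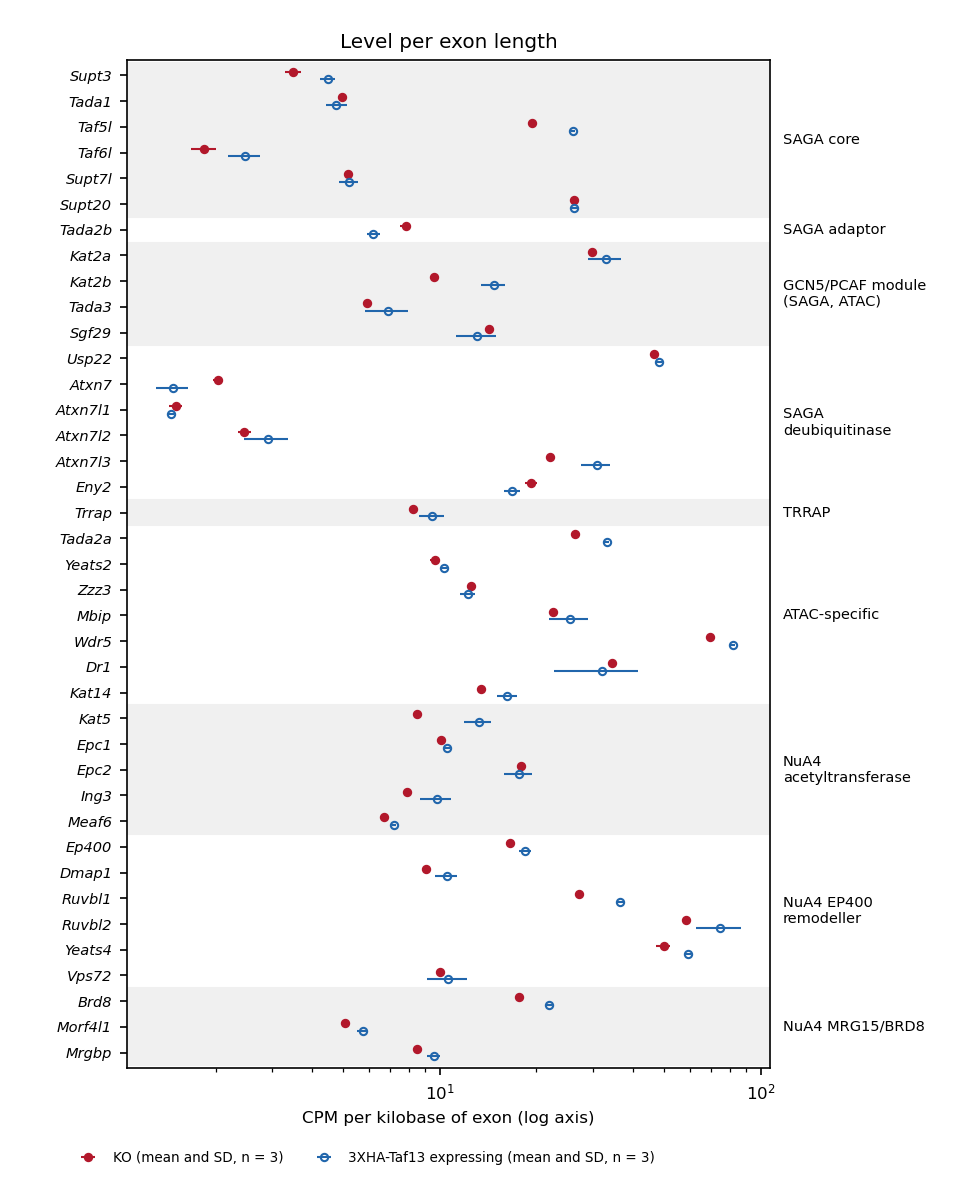
Mean level of each gene in CPM per kilobase of exon on a log axis, with SD bars (n = 3); filled points are KO libraries and open points expressing libraries. Levels run from about those of Atxn7l1 (1.5 in KO) to those of Wdr5 (69.4 in KO), and the shift between groups is small beside this range.

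Ratios of 2 genes within a library do not depend on library scaling. The 7 pairs were compared by a two-sided exact permutation test, whose smallest possible p with these groups is 0.1. No pair could thus pass 0.05, and each difference restates the changes of its 2 genes without the scaling. The log2 ratio of Tada2a to Tada2b counts was 1.41 ± 0.044 in KO and 2.07 ± 0.051 in expressing libraries (SD, n = 3 each), a difference of -0.66 (SE 0.039; exact permutation p = 0.1, adjusted over the 7 pairs 0.14). Atxn7 to Atxn7l3 differed by 0.95 (SE 0.17), at -2.48 ± 0.083 in KO and -3.44 ± 0.29 in expressing libraries (SD, n = 3 each). Kat2b to Kat2a differed by -0.47 (SE 0.17), with ratios of -1.13, -1.20 and -1.12 in KO libraries, against -1.0, -0.46 and -0.57 in expressing libraries. Expressing replicate 1 lay nearest to KO, and without it the difference was -0.64.

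The SAGA forms were also set against their TFIID counterparts. Taf6l to Taf6 differed by -0.54 (SE 0.09), whereas Taf5l to Taf5 differed by 0.29 (SE 0.068), which is the opposite sign. Taf6l and Taf5l themselves fell alike (-0.43 and -0.42), so the signs differ through Taf6 and Taf5, whose own values are not given here. In these 5 pairs the groups did not overlap, each exact permutation p was 0.1, the smallest possible, and the adjusted value 0.14. Epc1 to Epc2 (-0.08, SE 0.072, exact permutation p = 0.3) and Ruvbl1 to Ruvbl2 (-0.09, SE 0.12, exact permutation p = 0.6) overlapped between groups. Without expressing replicate 1 the difference was -0.01 for Epc1 to Epc2 and -0.19 for Ruvbl1 to Ruvbl2, while Tada2a to Tada2b, Atxn7 to Atxn7l3, Taf5l to Taf5 and Taf6l to Taf6 stood at -0.63, 0.81, 0.35 and -0.54.

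**Figure D4:**
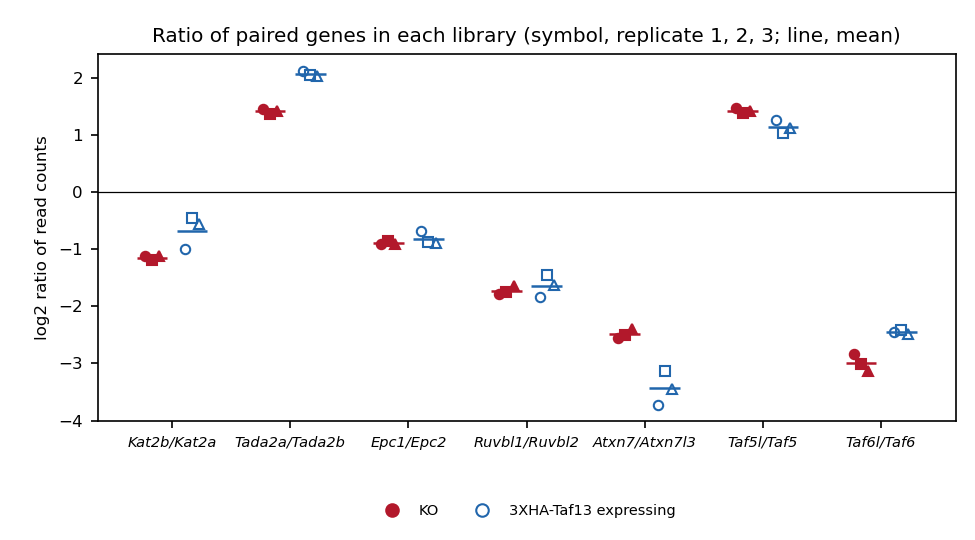
Log2 ratio of the read counts of 2 genes in each library for 7 pairs; filled red symbols are KO libraries, open blue symbols expressing libraries, shapes give replicates and lines the means. Ratios of Tada2a to Tada2b are near 1.41 in KO and 2.07 in expressing libraries, and those of Epc1 to Epc2 and Ruvbl1 to Ruvbl2 overlap.

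Further genes linked to these complexes, as subunits or through shared partners, and outside the 39, also went both ways. Of all tested genes 19.2% were higher and 20.8% lower, the shares to set beside the counts of these short lists. Of 6 SAGA genes for TAF and SF3B subunits, 2 rose and 1 fell. Their median log2 fold change of -0.11 rested on expressing replicate 1 and on the filter, at 0.02 without that library and 0.00 with at least 1 CPM in 3 libraries. Taf9b (0.51, SE 0.129) and Taf12 (0.30, SE 0.0638), histone-fold subunits common to SAGA and TFIID, rose, and the splicing factor gene Sf3b3 fell (-0.35, SE 0.0496). Of 3 genes that share the deubiquitinase partners, 2 rose and 0 fell in edgeR, with 0 lower by DESeq2 too and at p under 0.05 before adjustment. Usp27x, an alternative partner of ATXN7L3 and ENY2, was at 28.9 ± 0.983 CPM in KO and 18.1 ± 0.212 CPM in expressing libraries (SD, n = 3 each; 0.68, SE 0.0698, adjusted p = 8.67e-05, edgeR). Atxn7l3b, a relative of Atxn7l3 that binds ENY2, rose as well (0.28, SE 0.0706), to 186.6 ± 2.17 CPM in KO, against 153.3 ± 13.6 CPM in expressing libraries, and its likeness to Atxn7l3 makes both values uncertain where reads map to both.

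Of 6 further genes listed with NuA4, which include the variant histone genes H2afz and H2afv, 1 rose and 2 fell, with a median of -0.23. Without expressing replicate 1, 4 of the 6 were lower and 1 higher (median -0.38), where 24.7% and 26.2% of tested genes were. Actl6a, which encodes the actin-related subunit BAF53A, fell (-0.65, SE 0.0543), Morf4l2, the paralogue of Morf4l1, fell (-0.35, SE 0.0664), and Actb rose (0.35, SE 0.0647). Among 24 genes of other histone acetyltransferase complexes 9 fell and 1 rose, with a median of -0.17. Kat6b, a MYST-family enzyme, was at 114.7 ± 8.04 CPM in KO and 176.9 ± 2.66 CPM in expressing libraries (SD, n = 3 each; -0.63, SE 0.0643, adjusted p = 8.52e-05, edgeR), Jade2, a scaffold of the HBO1 complex, fell too (-0.61, SE 0.0805), and Kansl1, of the MOF complex NSL, rose (0.24, SE 0.0554). The share of 37.5% lower in this list stood beside 41.0% of the 39 members and 20.8% of all tested genes. Of all tested genes 19.2% were higher. With library totals 5 of the 24 were lower and 2 higher, where 14.5% and 25.1% of tested genes were.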

How the data were processed

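Per the labels' protocols, each stranded poly(A) library started from 800 ng of total RNA. The authors deposited raw read counts per gene for the 6 libraries; the submitters' processing notes name the mm10 build, HTSeq 0.6.1p1, STAR 2.5.3a, cutadapt 1.10 and bcl2fastq 2.20.0.422, with no settings. The table had 55401 Ensembl identifiers, of which 55141 have a GENCODE vM21 symbol. Genes were filtered with edgeR's filterByExpr (minimum count 10), which left 17778, and TMM-scaled counts of all 6 libraries were tested with edgeR 4.0.16 (glmQLFit and glmQLFTest, R 4.3.3; two-sided), with Benjamini-Hochberg adjustment over all tested genes and a threshold of 0.05. The common biological coefficient of variation was 9.05%. Library depth limits precision: 3 counts, the limit that a count of 0 allows, equal 0.0581 to 0.0961 CPM, and this covers counting error only. Dishes are the replicates, so p-values measure the spread between dishes. The script was tested on simulated data that held no GC trend and no outlying library, so that test does not cover the traits of expressing replicate 1. The alternatives were DESeq2 1.42.0 and its size factors, library totals, filters, each library left out, a replicate block and removal of a GC trend (lowess, span 0.3).

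The 39 members, the companion and marker lists, the pairs and the tests were chosen with earlier results of these data known. The genes given with values in every library are the 19 called members and the enzyme genes Kat2a, Usp22 and Ep400, plus Dr1, chosen after its values were seen, where 1 library decided the sign. From each companion list up to 2 called genes in each direction with the lowest p are named. Promoters were taken from RefSeq, and exon overlaps and lengths from GENCODE.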

Additional observations from a re-analysis of the deposited data

How the results depend on the processing

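Of the 19 called members, 9 kept their call under all 14 alternatives: Taf5l, Tada2b, Kat2b, Atxn7, Atxn7l3, Tada2a, Kat5, Ruvbl1 and Brd8. Eny2 was called in 7, Trrap in 5 and Morf4l1 in 4. With library totals, 8 members (reported: 16), 2 ATAC genes (reported: 4), 3 NuA4 genes (reported: 8) and 20 companion-list genes (reported: 36) were lower, under a scaling that moved the median of all genes to 0.08. Of all tested genes 14.5% were lower under that scaling (reported: 20.8%). Leaving out 1 library at a time gave 11 to 20 members lower, 3 to 10 NuA4 genes lower, 0 to 1 ATAC gene higher and 23 to 43 companion-list genes lower. Across all tested genes 14.5% to 24.7% were lower and 14.1% to 26.2% higher in these fits. With the GC trend removed, with or without the replicate block, 1 ATAC gene was higher (reported: 0). The replicate block gave 2 members higher and 14 lower, where 18.2% and 19.1% of tested genes were, with Eny2, Trrap and Morf4l1 lost. The labels do not say whether replicate numbers pair dishes across groups. Deviations of same-numbered libraries correlated at 0.0236, -0.0342 and 0.0419, and those of other-numbered libraries at -0.0819 to 0.0656. Deviations within a group depend on each other and expressing replicate 1 stood apart, so these values cannot exclude pairing. With the GC trend removed 18 members were lower and 3 higher, where 27.8% and 25.1% of tested genes were. DESeq2 and its size factors each gave 14 lower and 3 higher. Across all genes DESeq2 had 9.82% lower and 9.88% higher, over 33589 genes without the filter. With its size factors 19.7% were lower and 20.2% higher.

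The sign turned for 8 genes, all uncalled in the reported fit, and the cause was not tested. Supt7l (reported: -0.01) was 0.01 with DESeq2, its size factors, the GC trend removed and that with the replicate block, and 0.08 with library totals (-0.04 to 0.06 with 1 library left out). Supt20 (reported: -0.01) was 0.01 with DESeq2 and its size factors, 0.08 with library totals and 0.00 with at least 1 CPM in 3 libraries (-0.01 to 0.01 with 1 library left out). With library totals Usp22 and Epc1 were 0.04 and Vps72 was 0.01 (-0.17 to 0.07 with 1 library left out). With the GC trend removed, with or without the replicate block, Zzz3 was -0.02 and Epc2 was -0.04 (-0.03 to 0.08 with 1 library left out). Dr1 was -0.10 to 0.26 with 1 library left out, with the sign below 0 only without expressing replicate 1. Members had at least 337 counts in every library, and the part of depth in their calls was not tested.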

Other observations

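Of 19 histone deacetylase and corepressor genes 10 fell and 2 rose (edgeR, adjusted p under 0.05), with a median log2 fold change of -0.17, where 20.8% of all tested genes were lower and 19.2% higher. Sin3a, the scaffold of the SIN3 corepressor, was at 284.1 ± 9.14 CPM in KO and 371.2 ± 2.38 CPM in expressing libraries (SD, n = 3 each; -0.39, SE 0.0517), and Hdac6, a deacetylase of tubulin, fell by a like amount (-0.40, SE 0.0658). Hdac7, a class IIa deacetylase, rose to 20.9 ± 1.9 CPM in KO, against 10.2 ± 2.46 CPM in expressing libraries (1.04, SE 0.152), and Sap18, an accessory subunit of SIN3, rose too (0.63, SE 0.101). With library totals 6 of the 19 were lower and 2 higher, where 14.5% and 25.1% of tested genes were. Without expressing replicate 1, 10 of the 19 were lower and 3 higher (median -0.11), where 24.7% and 26.2% of tested genes were.

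WDR5 partners of the SET1 and MLL methyltransferases had 8 of 10 genes lower and 0 higher (median -0.29). Across all tested genes 20.8% were lower and 19.2% higher. Kmt2c stood at 102.5 ± 3.95 CPM in KO and 160.5 ± 9.0 CPM in expressing libraries (SD, n = 3 each; -0.65, SE 0.0636), and Kmt2b had a log2 fold change of -0.40 (SE 0.0864). Of 15 genes of the SRCAP and INO80 remodellers, which also use the RUVBL ring, 6 fell and 0 rose, among them the ATPase gene Ino80 (-0.54, SE 0.0568) and Nfrkb (-0.36, SE 0.0729). Among 10 genes of PI3K-like kinases, relatives of TRRAP, and their chaperones, 1 fell, the decay kinase gene Smg1 (-0.21, SE 0.0626), and 0 rose. In this list 4 were lower without expressing replicate 1 and 5 with the GC trend removed, where 24.7% and 27.8% of tested genes were lower. At an unadjusted p under 0.05 in edgeR, and by DESeq2, 0 genes were higher in these 3 lists. Without expressing replicate 1, 5 SRCAP or INO80 genes were lower and 2 higher (median -0.11, against -0.22 with all libraries), the kinase list had a median of -0.09, against -0.15, and WDR5 partners again had 8 lower and 0 higher. With library totals, 3 SRCAP or INO80 genes were lower and 2 higher, 0 genes of the kinase list were lower and 1 higher, and 3 WDR5 partners were lower and 0 higher. Of all tested genes 14.5% were lower and 25.1% higher with library totals, and 24.7% and 26.2% without expressing replicate 1.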
